A study of Mus musculus with 4 samples.

Results

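Otp neurons of the embryonic mouse hypothalamus are described here as the cells of the second E14 run with at least 10 UMIs of Otp, at least 3 UMIs of Stmn2 and Dcx together, at most 9 UMIs of Sst and at most 9 of Pmch. A UMI is a molecular tag, so that each count stands for 1 captured RNA molecule. The rule found 2612 cells among the 16794 of that run and the 43261 of the series. They made up 15.6% of the run (95% Clopper-Pearson interval 15.01 to 16.11) and 17.1% of its 15305 neurons, meaning cells with at least 3 UMIs of Stmn2 and Dcx (16.5 to 17.7). All cells came from C57BL/6J mice carrying Rax-CreERT2, a tamoxifen-inducible Cre made where the gene Rax is active, together with Ai14, which makes the red protein tdTomato after recombination. The tamoxifen is put at E9 in the design text and at E9.5 in the protocol, and the age called E14 in the titles is given as E14.5 elsewhere. Live tdTomato-positive cells from dissected hypothalamus were sorted and captured in droplets, so Otp neurons of unlabelled lineages were not sampled. The series has 1 sample from each of E11, E14, birth (P0) and the first postnatal week (P7). The ages called E11 and P7 in the titles are likewise given as E11.5 and P7.5 elsewhere. The number of animals behind a sample is not given in the labels.

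Otp encodes a homeodomain transcription factor made in the neuroendocrine hypothalamus. It is known to be needed, with Sim1 and Arnt2, for the paraventricular and supraoptic neurons that make vasopressin, oxytocin, corticotropin-releasing hormone and thyrotropin-releasing hormone. Pou3f2 is needed for those that make vasopressin, oxytocin or corticotropin-releasing hormone. Otp is also needed for neurons of the arcuate nucleus that make somatostatin or Agrp. At this stage of development most such neurons have left the cell cycle and are still maturing, and their peptides appear at different times.

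Because the rule reads Otp, Stmn2, Dcx, Sst and Pmch, values of those genes only describe the choice. Otp reached a median of 18 UMIs in the members and ran from 10 to 64, and its summed level was 1636 CPM, meaning counts per 1000000 UMIs. Just inside the limit, 506 members had 10 to 12 Otp UMIs, and just outside it 595 neurons had 7 to 9. On the Sst limit, 13 members had 8 or 9 Sst UMIs and 11 neurons left out had 10 or 11. Neurons with the required Otp but more Sst numbered 211 and are called Otp Sst neurons below, those with more Pmch numbered 2, and 14 cells with the required Otp fell short on Stmn2 and Dcx. The comparison cells were 8944 Otp-negative neurons of the same run, with at least 3 Stmn2 and Dcx UMIs, no Otp UMI and no limit on Sst or Pmch. Of these, 44 had 10 or more Sst UMIs, and 8846 met the members' limits on both genes. A further 3536 neurons had 1 to 9 Otp UMIs, of which 1903 had exactly 1.

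The upstream sequences of 3 genes are shown because Otp defines the cells, Avp is the peptide gene that set them furthest apart, and Uncx is a homeobox gene of high level in them whose window holds the letters TAATTA, a core recognised by many homeodomain proteins. The letters are those of RefSeq, build GRCm38.p6, written along the strand of the gene up to the base before its first annotated start, with TAATTA in capitals.
Otp, chr13:94875386-94875635, plus strand: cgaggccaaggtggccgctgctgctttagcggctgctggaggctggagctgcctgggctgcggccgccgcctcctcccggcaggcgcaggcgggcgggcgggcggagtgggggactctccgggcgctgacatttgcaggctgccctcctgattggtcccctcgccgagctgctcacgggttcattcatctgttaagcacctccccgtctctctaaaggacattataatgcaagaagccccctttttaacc
Avp, chr2:130582589-130582838, minus strand: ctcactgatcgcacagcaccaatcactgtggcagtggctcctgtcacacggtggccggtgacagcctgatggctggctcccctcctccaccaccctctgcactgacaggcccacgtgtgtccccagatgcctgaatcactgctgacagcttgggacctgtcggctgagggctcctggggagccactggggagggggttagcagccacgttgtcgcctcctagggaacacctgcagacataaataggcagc
Uncx, chr5:139543648-139543864, plus strand: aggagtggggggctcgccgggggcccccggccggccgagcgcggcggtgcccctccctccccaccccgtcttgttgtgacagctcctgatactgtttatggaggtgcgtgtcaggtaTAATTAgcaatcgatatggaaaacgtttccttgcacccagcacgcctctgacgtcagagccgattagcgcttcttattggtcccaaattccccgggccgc

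Motifs were searched on both strands in the 250 bases before each gene start of the RefSeq promoter table, and for Uncx the 217 of these that precede its first annotated start are printed above. TAATTA, which reads the same on both strands, was in 5.65% of 27025 genes and in 2.77% of the 5161 genes that were compared between the cell groups. It was in 5 of the 48 genes higher in Otp neurons that had a window (Uncx, Pdzrn4, Luzp2, Tmem163 and Zfp536) and in 3 of 53 lower genes. ATTTGCAT, the octamer read by POU factors, was in 1.81% of all windows, 1.395% of the compared genes, 0 of those 48 higher genes and 2 of the 53 lower ones. TACGTG, the core read by Sim and Arnt proteins, was in 3.12% of all windows, 4.17% of the compared genes, 3 of the 48 higher genes (Pou3f2, Dlk1 and Ap3b1) and 1 of the 53 lower ones. TACGTG and ATTTGCAT were read with their reverse complements CACGTA and ATGCAAAT, no motif contains another, and a match describes letters, not binding.

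Depth differed between the groups and the rule on raw UMIs favours deep cells. The median was 10781 UMIs per Otp neuron (range 4255 to 44558), 7945 per Otp-negative neuron and 9525 per Otp Sst neuron, over medians of 6059 to 15369 UMIs per cell in the 7 runs. Scrublet called 11.3% of Otp neurons doublets, 5.18% of Otp-negative neurons and 6.70% of the run, and these cells were kept. Between 0 and 43 barcodes of the run recurred in another run, and 7 of the Otp neurons shared a barcode with the second P0 run and 7 with P7. Marker lists for oligodendrocyte precursors, astrocytes, ependyma, microglia, endothelium, mural cells, fibroblasts and erythroid cells had 0 genes at 20 CPM, and their summed levels in Otp neurons ran from 0.190 to 9.22 CPM. With 1 sample per age there is no replicate. All intervals are at the 95% level and cover counting error only, and a gene is called higher or lower past a 2-fold ratio of CPM with 5 CPM added to both groups, among genes of at least 20 CPM in either.

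Under that rule 70 of 6565 genes were higher in Otp neurons than in Otp-negative neurons, a background of 1.07%, and 71 were lower, a background of 1.08%. The genes that led the higher side were transcription factors of the paraventricular programme and secreted peptides, and those that led the lower side were factors and enzymes of GABA neurons. Of the label's own markers beside Otp, Cartpt passed the call, while Gm2694 and Cbln1 did not. In female cells alone Gm2694 passed it, at 375 CPM against 179, as it did with at least 5 Otp UMIs, with Otp per 10000 UMIs and with the mean of the CPM of each cell, and Cbln1 passed it with that mean. Cartpt, the precursor of the CART peptide, stood at 339 CPM against 25.2, a ratio of 13.5 (12.82 to 14.12). Gm2694, a long noncoding RNA, stood at 368 CPM against 188, a ratio of 1.96 (1.91 to 2.01). Cbln1, a secreted organiser of synapses, stood at 223 CPM against 126, a ratio of 1.78 (1.72 to 1.83). Both were thus high in Otp neurons and also common outside them, since 17.3% of Otp-negative neurons had at least 3 UMIs of Gm2694 and 13.8% had as many of Cbln1.

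**Figure D1:**
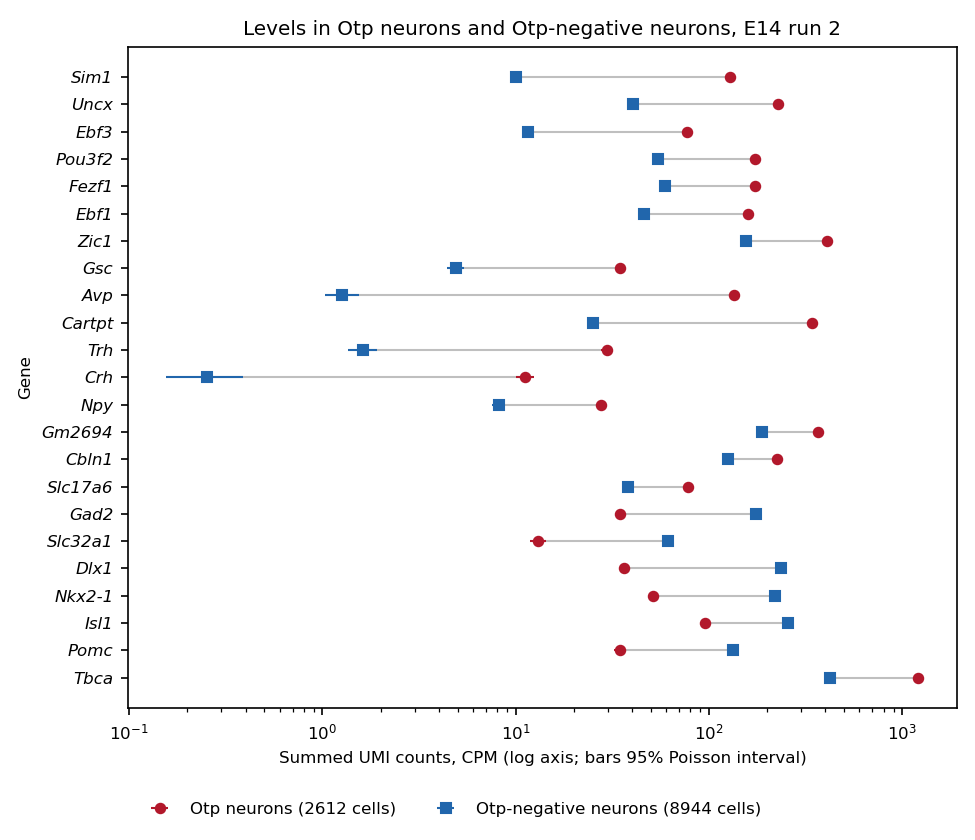
Summed level of 23 genes (CPM, log axis, with 95% Poisson intervals) in 2612 Otp neurons and 8944 Otp-negative neurons of the second E14 run. Sim1, Uncx, Avp and Cartpt lie to the right in Otp neurons, while Gad2 and Dlx1 lie to the right in Otp-negative neurons.

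Among the factors of the Otp programme, 9 of 11 listed genes could be tested, 4 were higher and 2 were lower, with a median log2 ratio of 0.86. Otp itself, which the rule used, was left out of the test. Sim1, a bHLH-PAS factor needed for paraventricular neurons, was at 128 CPM against 10.0, a ratio of 12.8 (11.8 to 13.8). At least 1 Sim1 UMI was found in 66.0% of Otp neurons and 5.31% of Otp-negative neurons, and after thinning every cell to 2500 UMIs in 26.6% and 2.14%. Uncx was at 227 CPM against 40.2, a ratio of 5.65 (5.42 to 5.90). Ebf3, a helix-loop-helix factor, was at 77.2 CPM against 11.52. Pou3f2 (Brn2), needed for magnocellular and CRH neurons, was at 172 CPM against 54.1. The relatives Pou3f1 and Pou3f3 went the other way, at 27.8 CPM against 61.2 and at 7.70 CPM against 28.4. In male cells alone Pou3f1 was short of the call and Pou3f3 was under the filter. Nhlh2, Arnt2 and Zfhx3 did not pass the call, with ratios of 1.86, 1.35 and 0.957, and Sim2 was under the filter at 6.88 CPM against 1.54.

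Of 57 other regional factors 35 could be tested, and 7 were higher and 19 lower. The higher ones were Fezf1, Lhx2, Lhx5, Ebf1, Ebf2, Zic1 and Zic2. Zic1, a zinc finger factor, was the most abundant of them at 407 CPM against 155, and Fezf1 stood at 172 CPM against 59.5 and Ebf1 at 159 CPM against 45.8. In male cells alone Fezf1 and Lhx5 were short of the call. The lower ones included the Dlx genes, homeobox factors of forebrain GABA neurons. Dlx1 was at 36.2 CPM against 236, which is 6.52-fold lower (6.15 to 6.93). Nkx2-1, the homeobox factor of the ventral hypothalamus, was at 51.4 CPM against 219, and Isl1, a LIM factor of arcuate neurons, at 94.95 CPM against 255. Called doublets touched these levels, since without them Dlx1 was at 20.05 CPM in Otp neurons.

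Of 32 neuropeptide genes 8 could be tested, 4 were higher (Trh, Avp, Cartpt, Npy) and 2 lower (Pomc, Tac1). Avp, the vasopressin precursor, was at 134 CPM against 1.26, Trh, the thyrotropin-releasing hormone precursor, at 29.5 CPM against 1.62, and Npy at 27.7 CPM against 8.16. Crh, the corticotropin-releasing hormone precursor, was under the filter at 11.18 CPM against 0.253. Oxt, the oxytocin precursor, had 17 UMIs, each alone in its cell. Most of these levels came from few cells. Avp had 4244 UMIs in 83 Otp neurons, and 12 cells had at least 100 each, with a highest count of 588. The 10 cells with most Avp held 81.6% of its UMIs, and without them its level was 24.9 CPM. Crh had 353 UMIs in 29 cells, of which the 10 highest held 76.5%. Npy had 874 UMIs in 85 cells, of which the 10 highest held 48.2%, and without them its level was 14.4 CPM, which is short of the call. Trh was more widely spread, with 932 UMIs in 202 cells. Cartpt was spread furthest, with 10700 UMIs in 1027 cells, of which the 10 highest held 11.4%. In cells without Stmn2 and Dcx, 2 of 433 had an Avp UMI, 2 a Trh UMI, 0 a Crh UMI, 6 an Npy UMI and 19 a Cartpt UMI. A Pomc UMI was in 83 of these 433 cells and in 502 of the 2612 Otp neurons.

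**Figure D2:**
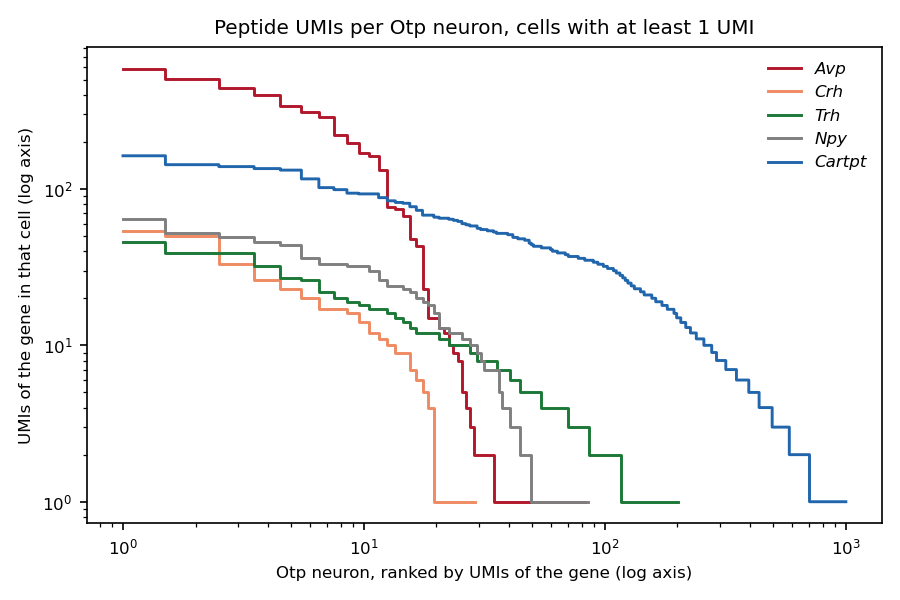
UMIs of Avp, Crh, Trh, Npy and Cartpt in single Otp neurons, ranked from the highest, for at most the first 1000 cells (both axes logarithmic). The Avp curve starts at 588 UMIs and reaches 3 or more in 28 cells, while Cartpt keeps 3 UMIs or more in 582 cells.

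Peptide genes also differed in the company they kept. Among Otp neurons with at least 3 UMIs of Trh, 41 of 85 also had 3 of Cartpt, which is 48.2% against 22.3% of all members. Of 28 cells with 3 UMIs of Avp, 1 had as many of Cartpt, 4 had as many of Crh and 0 had as many of Trh. Over all members the shares were 22.3% for Cartpt, 0.727% for Crh and 3.25% for Trh. For Trh, 0 of 28 allows up to 12.3%, which includes its share over all members. Of 874 cells with 3 UMIs of Cbln1, 775 had 3 of Gm2694, which is 88.7% against 42.0% of all members. Cbln1 and Gm2694 lie side by side on chromosome 8 (GRCm38), Cbln1 at chr8:87468853-87472592 and Gm2694 at chr8:87472812-87525554.

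Of 14 genes for peptide processing and secretion 11 could be tested, and Pcsk2, a convertase that cleaves prohormones, was the only one called, at 71.8 CPM against 28.9. It was short of the call in male cells alone, at 69.5 CPM against 34.2. Pcsk1n, Cpe, Scg2 and Chgb differed by less than the fold, at ratios of 0.798, 0.993, 0.759 and 0.715. Transmitter genes divided by type. Gad1 and Gad2, which make GABA, and Slc32a1, which loads it into vesicles, were lower, at 13.1 against 60.7, 34.6 against 175 and 13.0 against 61.0 CPM, and so were Ddc and Slc18a2 of the monoamine pathway. Slc17a6, the vesicular glutamate transporter VGLUT2, was at 78.3 CPM against 37.9, a ratio of 2.07 (1.96 to 2.18) that was short of the call with 5 CPM added. Without called doublets Slc17a6 passed the call, at 81.5 CPM against 37.55, and it also passed in female cells alone, at 80.0 CPM against 36.9, but not in male cells, at 82.0 CPM against 44.0. In cells thinned to 2500 UMIs, Slc17a6 without a GABA gene was found in 15.9% of Otp neurons (14.51 to 17.35) and 6.38% of Otp-negative neurons, and a GABA gene without Slc17a6 in 9.34% (8.25 to 10.5) and 43.5%. Unthinned, the shares of Otp neurons were 42.2% and 15.9%. Cells without Stmn2 and Dcx, whose median depth was 6985 UMIs, gave thinned shares of 0.693% and 8.31%. GABA genes were not spread evenly over the members, since 73 of 137 Otp neurons with at least 3 UMIs of Gad2 also had 3 of Isl1, which is 53.3% against 12.1% of all members. Called doublets were kept in these counts, and their part in the overlap was not tested. Without called doublets Gad2 was at 26.2 CPM in Otp neurons.

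Of 13 cerebellins and partners 5 could be tested and 1 was called, Nrxn3, a neurexin, which was lower. Of 43 axon guidance genes 26 could be tested and 2 were higher, Cntn2 at 54.6 CPM against 14.4 and Plxnc1 at 78.3 CPM against 33.7, with a median log2 ratio of 0.0041. Of 32 maturation genes 29 could be tested and 1 was higher, Neurod1, a proneural factor, at 66.3 CPM against 17.9. Of 15 tested imprinted genes Dlk1 was higher and Plagl1 lower, and Nnat, a brain-enriched imprinted gene, was at 16013 CPM against 8558. Of 40 receptors for hormones and peptides 3 could be tested and 0 were called. Of 5 tested proliferation genes Top2a was lower, and of 9 tested stress genes 0 were called. Of 5 tested radial glia markers 2 were lower, Fabp7 and Sox2, the latter at 68.8 CPM against 335. Of 6 tested intermediate progenitor markers 1 was called, Neurog2, which was higher. Without called doublets Sox2 was at 43.4 CPM and Top2a at 5.51 CPM in Otp neurons, against 12.4 CPM for Top2a with them. Top2a was short of the call in male cells alone, at 13.03 CPM against 16.005.

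Among the remaining genes with the highest ratios were Nrn1 (neuritin), at 105 CPM against 17.9, Syndig1, a synapse protein, at 34.9 against 3.499 CPM, Rxrg, a retinoid X receptor, at 32.3 against 3.64 CPM, Gsc, the goosecoid homeobox gene, at 34.6 against 4.89 CPM, Mdga1, an adhesion molecule, at 48.6 against 9.31 CPM, and Pdzrn4 at 69.6 against 15.3 CPM. Among the largest ratios on the lower side were those of Dlx6os1, Dlx5, Dlx2, Dlx6, Meis2 and Sp9, all genes of GABA neurons or of the ganglionic eminence.

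A neighbour of Otp was among the higher genes. Otp lies on chromosome 13 (GRCm38) at chr13:94875636-94885125, and Tbca, which encodes the tubulin-binding cofactor A, is 32.7 kb from it. Tbca stood at 1212 CPM in Otp neurons and 424 CPM in Otp-negative neurons, a ratio of 2.86 (2.81 to 2.90), and it was higher in each bin of neurons with more Otp UMIs. Ap3b1, a subunit of the AP-3 adaptor complex 309 kb away, stood at 62.0 CPM against 28.3, a ratio of 2.19 (2.06 to 2.33). Of 6 tested genes within 1 Mb of Otp these 2 were higher and 0 lower. Wdr41, 91.2 kb away on the other side, stood at 12.6 CPM against 11.4. Around Cbln1, 0 of 6 tested genes were called.

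Neurons grouped by their Otp UMIs show how the genes ran across the limit of the rule. These bins hold only neurons with at most 9 Sst and 9 Pmch UMIs, so 8846 had no Otp UMI and 891 had 5 to 9. Sim1 was at 10.1 CPM in neurons with 0 Otp UMIs, 71.3 with 5 to 9, 88.8 with 10 to 14 and 161 with 30 or more. Cartpt ran from 22.6 CPM to 97.6, 260 and 454 over the same bins, with 252 at 15 to 19 Otp UMIs, and Tbca ran from 424 to 846, 1040 and 1394. Avp levels by bin rest on few cells, since 10 members held 81.6% of its UMIs. Avp was at 185 CPM with 5 to 9 Otp UMIs, 253 with 10 to 14, 214 with 15 to 19, 37.2 with 20 to 29 and 1.42 with 30 or more. Gm2694 was highest with 5 to 9 Otp UMIs at 490 CPM and lay between 310 and 462 CPM in the bins inside the rule. Gad2 dropped from 176 CPM to 56.3 with 5 to 9 Otp UMIs, and Isl1 from 254 to 55.9 with 30 or more. Neurons with 5 to 9 Otp UMIs thus had levels of Sim1, Gad2 and Tbca between those of the members and those of neurons without Otp.

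**Figure D3:**
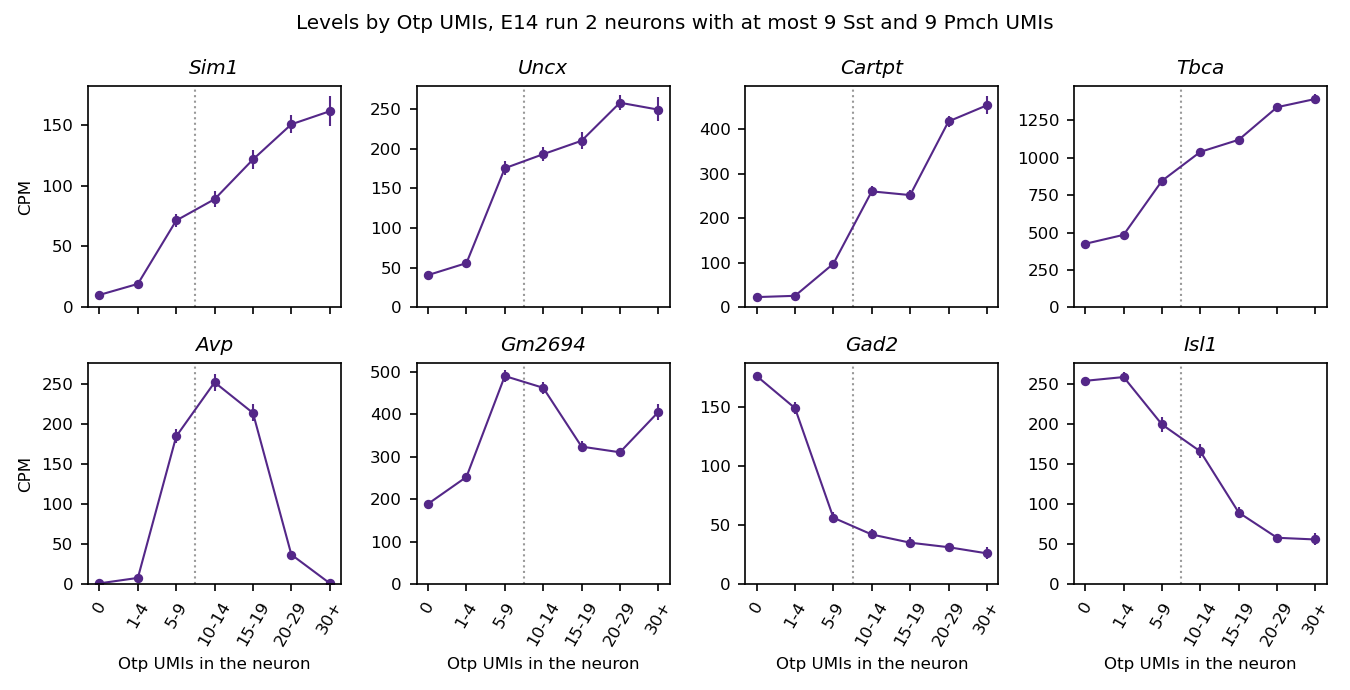
Summed level (CPM, with 95% Poisson intervals) of 8 genes in neurons of the second E14 run with at most 9 Sst and 9 Pmch UMIs, by number of Otp UMIs, with the rule's limit as a dotted line. Sim1, Cartpt and Tbca are higher in every bin inside the rule than in those outside it, Cartpt is at 260 CPM with 10 to 14 UMIs and 252 with 15 to 19, Avp, which rests on few cells, is highest at 10 to 14 UMIs, and Gad2 and Isl1 are lower in every bin inside the rule than with no Otp.

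The members were also clustered among themselves into 15 groups, with 12 and 22 groups at the lower and the higher resolution tried. The genes that lead a group were used to draw it, so these values describe and test nothing, and the groups carry numbers only. Group 11 (142 cells) held 98.7% of the Avp UMIs, at 2396 CPM, and also Calb1 (calbindin) at 649 CPM against 39.7 in the other members, and Crh at 82.9 CPM. Group 5 (211 cells) had Crh at 81.3 CPM, Pou3f2 at 552 CPM, the insulin receptor substrate Irs4 at 121 CPM and the glucocorticoid receptor gene Nr3c1 at 66.1 CPM. These 2 groups held 97.2% of the Crh UMIs between them. Few of their cells carried these peptides. At least 3 UMIs of Avp were in 27 cells of group 11, and as many of Crh in 12 cells of group 5 and 6 of group 11. Group 7 (189 cells) led in Cartpt, at 2255 CPM against 223, with Crabp2, a carrier of retinoic acid, and group 8 (180 cells) in Trh, at 192 CPM, and Cbln2, at 572 CPM. Group 9 (175 cells) had Onecut2 at 1580 CPM, Trh at 131 CPM and Gm2694 at 1211 CPM.

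Group 1 (300 cells) had Fgd5 and Rprm among its leading genes, at 95.7 and 439 CPM. Group 2 (254 cells) had Gsc at 277 CPM and Gm2694 at 992 CPM. Group 3 (220 cells) was led by Foxp2, at 273 CPM, with Syt4 and Reln, and it had Gap43 at 3119 CPM. Group 10 (150 cells) had the guidance receptor Robo3, Nkx2-2 and Lmo1, group 12 (140 cells) had Ebf1 at 828 CPM and Calb2 (calretinin) at 340 CPM, and group 13 (127 cells) had the cyclin gene Ccnd1 at 555 CPM, the proneural factor Neurog2 at 196 CPM and the lowest Stmn2, at 721 CPM. Group 14 (90 cells) had Nkx2-4 and, of the mammillary region, Foxb1 among its leading genes, and 18.9% called doublets. Group 4 (212 cells) stood apart from the paraventricular genes, with Npy at 364 CPM, Isl1 at 845 CPM and Six6 at 364 CPM, Sim1 at 4.73 CPM and Gad2 at 111 CPM, the highest of the groups. Called doublets made up 75.9% of group 6 (203 cells, with Sox14 and Dlx1 among its leading genes) and 89.5% of group 15 (19 cells, led by the mitosis genes Ube2c, Cenpf and Top2a), against 0 to 18.9% of the other groups. Slc17a6 was above 50 CPM in every group but group 4, where it was at 7.10 CPM.

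**Figure D4:**
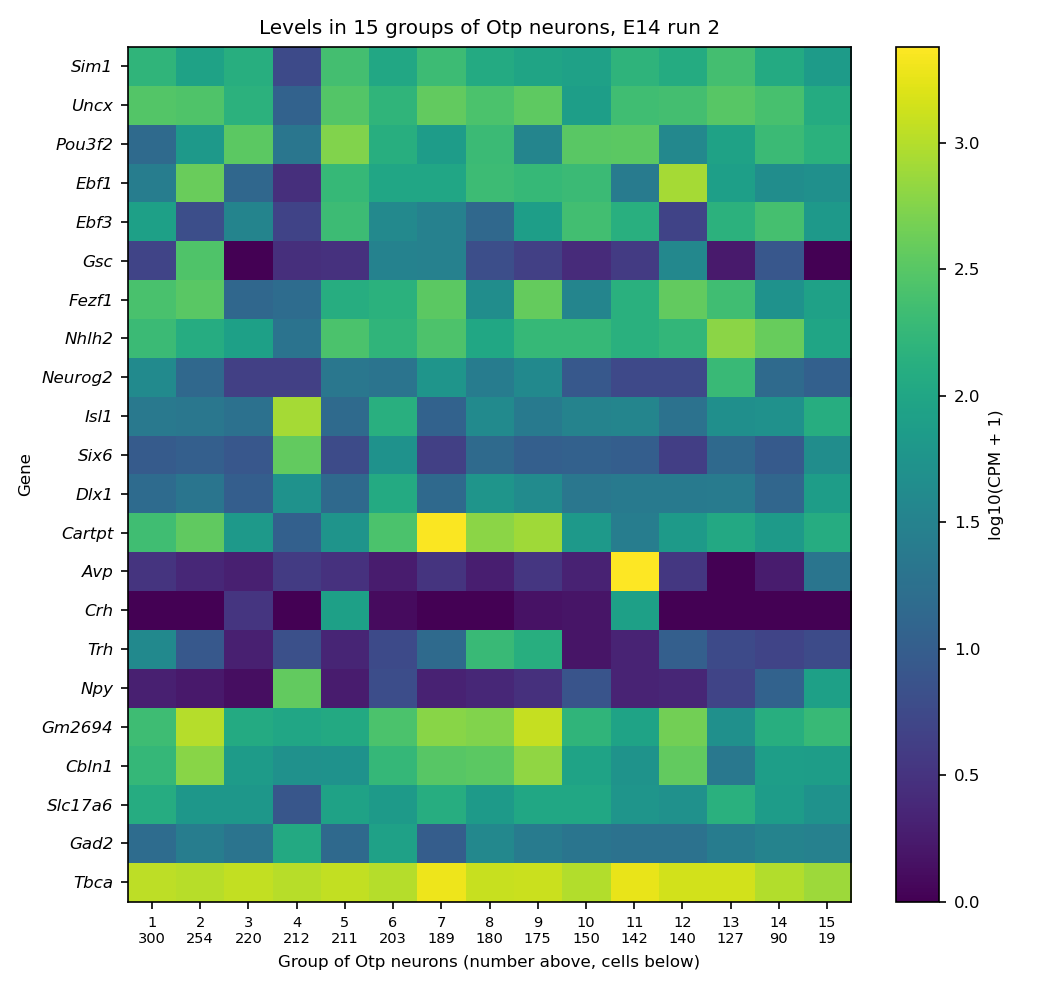
Levels of 22 genes (log10 of CPM + 1, colour) in 15 groups of Otp neurons, with cell numbers under each group. Avp is high in group 11, Cartpt in group 7, and Npy and Isl1 in group 4, where Sim1 is low.

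Otp Sst neurons, the 211 cells with the required Otp and 10 or more Sst UMIs, differed from the members in other genes than Otp and Sst. Of 6581 tested genes 77 were higher in Otp neurons (1.17%) and 54 were lower (0.821%). Pou3f1 stood at 345 CPM in Otp Sst neurons and 27.8 in Otp neurons, Isl1 at 854 against 94.95 CPM, Npy at 431 against 27.7 CPM, Six6 at 271 against 38.1 CPM and Bsx, a homeobox factor of Npy and Agrp neurons, at 179 against 15.97 CPM. Sim1 stood at 19.3 CPM in Otp Sst neurons and 128 in Otp neurons, Pou3f2 at 24.1 against 172 CPM, Gsc at 2.15 against 34.6 CPM, and Avp at 2.58 against 134 CPM. Gad2 was at 107 CPM and Slc17a6 at 27.9 CPM in Otp Sst neurons. Tbca was at 1380 CPM there, a ratio of Otp neurons to Otp Sst neurons of 0.878 (0.847 to 0.911). Group 4 of the members shared Npy, Isl1 and Six6 with the Otp Sst neurons.

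The embryos of the run were of both sexes, and male cells (Y-linked UMIs, no Xist) came from other embryos than female cells (Xist, no Y-linked UMI). Otp neurons made up 16.9% of 2049 male neurons (15.3 to 18.6) and 16.8% of 10828 female neurons (16.1 to 17.5). The ratio of Otp neurons to Otp-negative neurons was 13.4 in male and 13.4 in female cells for Sim1, 12.6 and 14.4 for Cartpt, 3.17 and 2.85 for Tbca, and 1.86 and 2.17 for Slc17a6. Other ratios lay further apart, at 9.88 in male (8.36 to 11.7) and 2.95 in female cells (2.81 to 3.09) for Ebf1, 5.07 and 2.94 for Pou3f2, and 0.105 and 0.302 for Pomc. For Ebf1 the gap lay in the Otp-negative neurons, at 17.0 CPM in male and 55.4 CPM in female cells. Its level in Otp neurons was 168 and 163 CPM. Pou3f2 was at 213 and 167 CPM in Otp neurons and at 41.9 and 57.0 CPM in Otp-negative neurons. Pomc was at 22.0 and 36.7 CPM in Otp neurons and at 210 and 122 CPM in Otp-negative neurons. Gad2 was at 26.8 CPM against 148 in male cells and at 31.5 CPM against 180 in female cells. Avp was at 258 CPM in male Otp neurons and 136 CPM in female Otp neurons, levels that rest on few cells.

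The same contrast was then made inside each run of the series that had at least 20 cells under the rule. Its 70 higher and 71 lower genes were chosen at E14, so counts elsewhere can be read against the background of each run. Of the 55 genes that could be tested in the second E11 run, 39 were higher there too, where 1.76% of genes were higher. In the second P0 run 25 of 61 were higher (1.36%), in the first P0 run 27 of 56 (1.6%), and at P7 13 of 46 (1.38%). Of the lower genes, 48 of 60 were lower at E11 (1.97%), 45 of 60 in the second P0 run (3.72%), 32 of 55 in the first P0 run (1.94%) and 32 of 52 at P7 (7.76%). Sim1 was 17.5-fold higher at E11, 3.71-fold in the second P0 run and 3.19-fold at P7. Trh was 7.96-fold, 28.97-fold and 33.3-fold higher in these runs. Tbca was 3.44-fold higher at E11, 2.25-fold and 2.52-fold in the P0 runs and 2.01-fold at P7, and Ap3b1 was higher in all 5 runs, by 2.18-fold to 3.59-fold. Cartpt was 3.19-fold higher at E11, 1.77-fold in the second P0 run and 0.415-fold at P7. Gad2 was 0.118-fold at E11 and 0.255-fold in the second P0 run, but 1.43-fold at P7. Each run holds its own cells and its own comparison neurons. At P7 the cells under the rule had a median of 31273 UMIs and the comparison neurons 13321. With Otp counted per 10000 UMIs, 12 P7 cells met the limit, where 224 did with raw UMIs. The part of depth in these ratios was not tested.

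**Figure D5:**
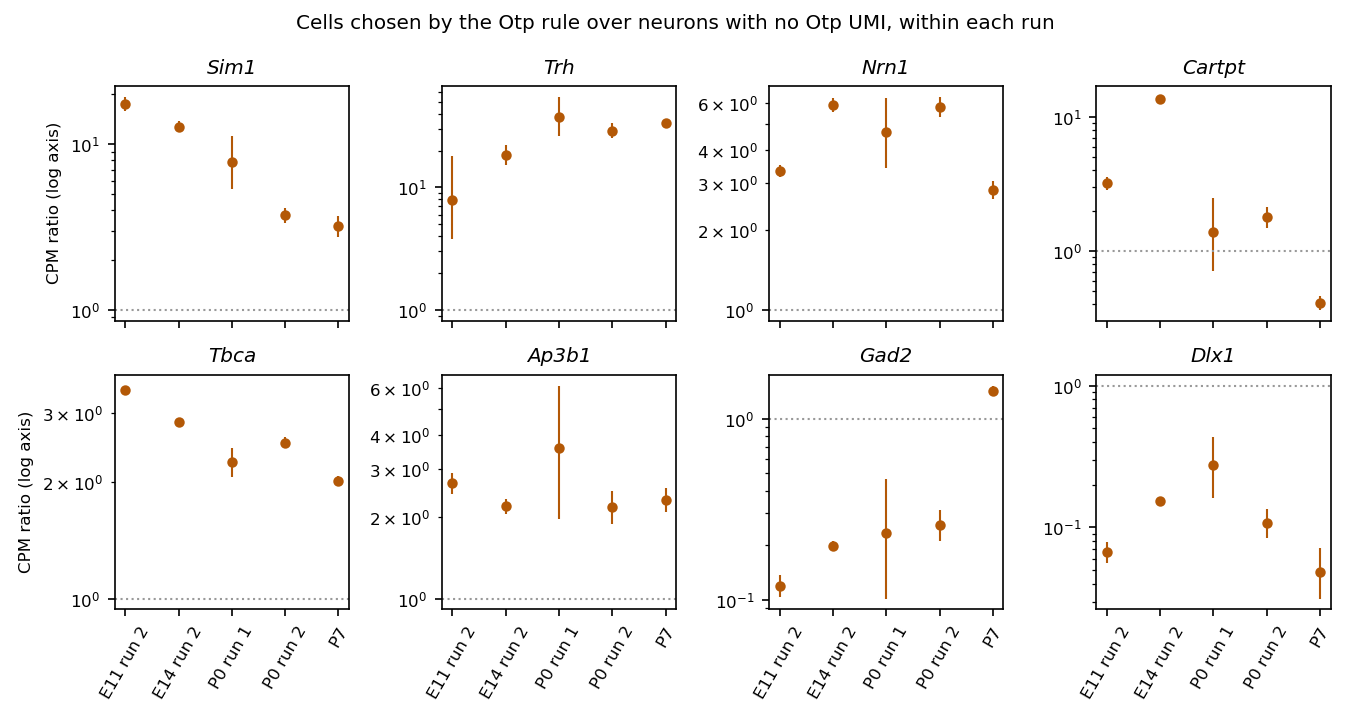
Ratio of CPM (log axis, with 95% exact intervals) of cells chosen by the Otp rule to neurons with no Otp UMI, inside 5 runs. Tbca and Ap3b1 lie above 1 in all 5 runs, while the Cartpt ratio is highest at E14 and Gad2 is above 1 only at P7. The P7 cells under the rule had a median of 31273 UMIs and their comparison neurons 13321.

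Shares and levels under the rule across ages depend on depth, which the rule favours. Of the neurons, 21.8% met the rule in the second E11 run (599 cells), 17.1% in the second E14 run, 2.67% in the second P0 run (204 cells) and 4.61% at P7 (224 cells). With Otp counted per 10000 UMIs and the runs of an age pooled, 17.4% of E11 neurons met the limit, 15.6% of E14 neurons, 1.54% of P0 neurons and 0.247% of P7 neurons. The first E14 run gave 13 cells and 4.44%, and the first E11 run 9 cells and 4.64%, which was too few for levels. Avp had 0 UMIs in the E11 cells and stood at 134 CPM at E14, 1000 CPM in the second P0 run and 9285 CPM at P7. Oxt stood at 6.15, 0.539, 330 and 3362 CPM, and Trh at 2.93, 29.5, 129 and 566 CPM. Cartpt stood at 63.7, 339, 34.8 and 38.8 CPM and was highest at E14. Sim1 went from 295 CPM at E11 to 128, 105 and 35.9 CPM, and Uncx from 513 CPM to 227, 66.8 and 29.3 CPM. Agrp was at 2040 CPM and Npy at 7516 CPM at P7, against 1.77 and 27.7 CPM at E14. The first P0 run (42 cells) had Avp at 12172 CPM, above both the second P0 run and P7. It also had Fabp7 at 1205 CPM and Apoe at 715 CPM. RNA of other cells was not estimated in that run, and its part in these values was not tested. Between the second P0 run and E14, 677 of 7292 genes were higher (9.28%) and 230 lower (3.15%), and of 16 tested neuropeptides 11 were higher and 2 lower. In the same comparison Apoe was at 91.4 CPM against 4.25. Of 4 tested radial glia markers, Fabp7, at 150.3 CPM against 44.4, and Sox9 were higher and Vim was lower. Of 9 tested stress genes 4 were higher, Fos, Fosb, Junb and Egr1. The part of these genes in the result was not tested. Age and run cannot be told apart in these values. Xist and the Y-linked genes summed to 399 CPM in the second P0 run and 1094 CPM at E14. The part of sex in the differences between ages was not tested.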

How the data were processed

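The deposited table holds raw UMI counts for 28879 genes in 43261 cells, made with the Chromium version 3 chemistry per the labels, and the authors' values were whole and not normalized. Cell Ranger 3.0.2, Seurat and mm10 are named in the submitters' processing notes, and the filter on cells is not given in the sources used here. Cells were assigned to samples and runs by their name. Runs have 1 sample per age, so groups were summed, scaled to CPM and compared as values with no test. The intervals (exact Poisson, Clopper-Pearson, and exact conditional for ratios) are at 95%. Genes were filtered at 20 CPM and called at a 2-fold ratio with 5 CPM added, leaving out the genes of the rule, mitochondrial, Xist and Y-linked genes. Named genes were the members of fixed lists, the 12 highest and 8 lowest against Otp-negative neurons, and the leading genes of each group and comparison. Members, lists and rules were chosen with earlier results of these data known, and the run contrasts and neighbours were added after the E14 values were seen. Shares of cells were thinned to 2500 UMIs. Members were clustered with 1000 variable genes, 20 principal components, 15 neighbours and Leiden resolution 0.6, and doublets were called with Scrublet at an expected rate of 0.06. Python 3.11.15, Scanpy 1.11.5, numpy 2.4.6, scipy 1.17.1, pandas 2.3.3, leidenalg 0.10.2 and igraph 0.11.9 were used. Some genes that the rules would name are not reported here.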

Additional observations from a re-analysis of the deposited data

How the results depend on the processing

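No paired analysis was possible because each age had 1 sample. The number of Otp neurons was 3503 with at least 5 Otp UMIs, 1184 with at least 20, 2424 with at least 10 per 10000 UMIs of the cell, 2286 with no Sst and no Pmch UMI, and 2317 without called doublets. With 20 CPM added in place of 5, 31 genes were higher and 36 lower, and the other alternatives gave 47 to 92 higher and 59 to 100 lower genes. The 70 higher genes kept their direction under every alternative, and so did the 71 lower genes except 1 in male cells alone. Changing the CPM added or the filter cannot reverse a direction, and the other alternatives reuse cells in which the genes were chosen. Fewer stayed past the fold. These were 47 higher and 59 lower with comparison cells of 0 to 9 Otp UMIs, 55 and 66 with at least 5 Otp UMIs, 62 and 67 with at least 20, 62 and 59 with comparison cells weighted for depth, 62 and 62 in male cells alone, and 65 and 65 in female cells alone. Genes of the report that lost their call in male cells were Fezf1, Lhx5, Npy, Pcsk2, Pou3f1, Pou3f3 and Top2a. Of these, Npy, at 17.1 CPM against 5.43, and Pou3f3, at 4.85 CPM against 18.9, were under the filter there. In female cells Ap3b1 and Plagl1 lost their call. With comparison cells of 0 to 9 Otp UMIs, Ap3b1, Dlk1, Ebf2, Lhx2, Lhx5, Neurog2, Npy, Plagl1, Plxnc1 and Top2a lost it. Npy also lost it with at least 20 Otp UMIs, with no Sst and no Pmch UMI and with 20 CPM added. Npy was not alone in this, since 31 of the 70 higher and 36 of the 71 lower genes kept their call with 20 CPM added. The other genes that lost it there, and those that lost it with comparison cells weighted for depth, are not named here. Slc17a6 gained a call with 1 CPM added, with at least 20 Otp UMIs, with Otp per 10000 UMIs, with the mean of the CPM of each cell, without called doublets and in female cells. With Otp per 10000 UMIs the rule took 17.4% of E11 neurons, 15.6% of E14 neurons, 1.54% of P0 neurons and 0.247% of P7 neurons. With raw Otp UMIs, the first E11 and E14 runs alone gave 4.64% and 4.44%. Of the other named values under an alternative, 608 stayed within their counting interval and 636 left it. The 63 named genes with a call against Otp-negative neurons had 0 changes of sign among these values, where the same limit on direction holds. Changes of sign were not counted for genes without a call. Depth limits genes of low level, and a gene under 20 CPM in both groups was not called.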

Other observations

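Lhfpl2, 680 kb from Otp and under the filter, stood at 6.495 CPM in Otp neurons and 0.808 CPM in Otp-negative neurons, a ratio of 8.03 (6.04 to 10.8). It was chosen after its values were seen. Its ratio was 2.87 in the second E11 run, 2.76 in the second P0 run and 0.311 at P7. Of the 15 groups of members, group 14 had the lowest share of male cells and was picked for it after the values were seen. Group 14, with Nkx2-4 and Foxb1 among its leading genes, held 3 male and 75 female cells, which is 3.85% male (0.800 to 10.8) against 16.04% over all members (14.52 to 17.66). Group 6 was at 9.29% male (5.04 to 15.4) and group 8 at 10.3% (5.91 to 16.5), and the highest was group 11 at 22.3%. Cells with both Xist and Y-linked UMIs count as neither sex, so a doublet of a male and a female cell can drop out. Of the 203 cells of group 6, 13 were male and 127 female, and 75.9% were called doublets. The part of doublets in these shares was not tested.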
